A study of Mus musculus with 16 samples.

Results

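Chemokine ligands are small secreted or membrane-bound proteins that attract leukocytes, and the mouse liver libraries described here were read for every gene whose name begins with Ccl, Cxcl, Cx3cl or Xcl followed by a number and at most 1 letter. That rule took 39 of the 24421 gene rows in each of 2 count tables by name alone. The family itself was chosen with earlier results of these data known. Whole-liver messenger RNA had been sequenced in 16 libraries that formed 4 groups of 4. The DKO livers came from mice with floxed Arid1a (ARID1A f/f), floxed Arid1b (ARID1B f/f) and the Alb-Cre transgene, and their controls carried both floxed genes without Alb-Cre. The BKO livers came from mice with floxed Arid1b alone and Alb-Cre, and their controls carried the floxed Arid1b without Alb-Cre. Every mouse in the DKO experiment, controls included, thus carried floxed alleles of both genes, and every mouse in the BKO experiment carried the floxed Arid1b. Each BAF chromatin remodelling complex holds either ARID1A or ARID1B. The albumin promoter of Alb-Cre is active in hepatocytes, so endothelial, stellate and immune cells of these livers were outside the intended deletion. The labels give no age, and no group with Arid1a deleted alone was analysed here. The library names carry tags that may mark animals, but the labels do not say so, and BKO controls F5 and F5-2 share 1 tag, so the 4 BKO control libraries may come from 3 animals. A p-value here measures the spread between libraries.

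Chemokines are classed as CC, CXC, CX3C and XC by the spacing of their first cysteines, and they act through receptors of matching names on leukocytes. Inflammatory members such as Cxcl1, Ccl2 and Cxcl10 are induced by NF-kappaB and by interferon, whereas homeostatic members such as Cxcl12 are made continuously by stromal and endothelial cells. In liver, Cxcl1 and its relatives draw neutrophils, Ccl2 draws monocytes, and Cxcl9, Cxcl10 and Cxcl11 draw T cells and NK cells through Cxcr3. Cx3cl1 and Cxcl16 are made with a membrane stalk and are released by proteases.

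Genes of the family lie in clusters, and their promoters are shown for a pair of clusters on chromosome 5 whose neighbouring genes had unlike counts. Of the 39 genes, 27 matched the RefSeq promoter table (build GRCm38.p6), with 33 distinct start sites, and the 250 bases before each start were searched on both strands. The sequences are credited to RefSeq, run 5' to 3' on the gene's own strand and stop before the first annotated transcript base. Capitals mark matches to the NF-kappaB consensus, to the core of the interferon-stimulated response element (GAAANNGAAA), to the AP-1 core (TGANTCA) and to the TATA box core (TATAAA), and no match overlapped one to another motif. The Cxcl1, Cxcl2 and Cxcl3 windows are chr5:90890995-90891240, chr5:90903649-90903870 and chr5:90785851-90786100, all on the plus strand. The Cxcl9 and Cxcl10 windows are chr5:92328080-92328329 and chr5:92348890-92349139, both on the minus strand.
Cxcl1: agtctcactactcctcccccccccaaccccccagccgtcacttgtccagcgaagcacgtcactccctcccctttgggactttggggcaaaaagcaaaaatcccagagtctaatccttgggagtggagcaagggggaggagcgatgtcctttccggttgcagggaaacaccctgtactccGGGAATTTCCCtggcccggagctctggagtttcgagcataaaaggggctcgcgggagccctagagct
Cxcl2: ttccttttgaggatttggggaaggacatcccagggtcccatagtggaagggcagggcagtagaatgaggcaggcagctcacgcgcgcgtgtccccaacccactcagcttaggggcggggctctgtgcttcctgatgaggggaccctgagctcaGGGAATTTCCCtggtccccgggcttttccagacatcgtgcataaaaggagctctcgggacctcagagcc
Cxcl3: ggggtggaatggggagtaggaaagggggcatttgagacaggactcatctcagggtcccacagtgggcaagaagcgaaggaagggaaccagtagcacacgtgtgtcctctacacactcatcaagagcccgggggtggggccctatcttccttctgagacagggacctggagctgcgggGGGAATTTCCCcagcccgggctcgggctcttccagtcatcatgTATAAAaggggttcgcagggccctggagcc
Cxcl9: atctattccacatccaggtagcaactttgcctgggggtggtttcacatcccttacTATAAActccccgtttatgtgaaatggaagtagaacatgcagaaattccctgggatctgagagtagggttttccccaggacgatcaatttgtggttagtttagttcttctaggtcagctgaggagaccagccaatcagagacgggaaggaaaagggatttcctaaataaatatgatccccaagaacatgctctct
Cxcl10: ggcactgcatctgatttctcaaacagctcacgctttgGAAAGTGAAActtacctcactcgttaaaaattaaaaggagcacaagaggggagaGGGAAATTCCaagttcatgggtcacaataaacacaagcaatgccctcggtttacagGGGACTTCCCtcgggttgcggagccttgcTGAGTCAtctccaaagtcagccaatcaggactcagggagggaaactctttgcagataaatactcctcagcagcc

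Cxcl1, Cxcl2 and Cxcl3 held the same NF-kappaB match, GGGAATTTCC, which is why all 3 are printed. Positions are counted back from the RefSeq start, and the last 4 bases before that start of Cxcl1 and the last 28 before that of Cxcl2 lie in annotated transcripts and are not printed. On this count the match lay at -71 to -62 before Cxcl1, at -97 to -88 before Cxcl2 and at -73 to -64 before Cxcl3, and in each a second match on the other strand was shifted by 1 base (at -70 to -61 before Cxcl1). Cxcl10 held 2 NF-kappaB matches, at -159 to -150 and -103 to -94, together with an interferon-response core at -213 to -204 and an AP-1 core at -74 to -68. The Cxcl9 window held only a TATA box core, at -195 to -190, among the 4 motifs searched. Across the family, the NF-kappaB consensus was in 18.2% of the 33 windows (genes Ccl9, Ccl20, Cxcl1, Cxcl2, Cxcl3 and Cxcl10), against 3.9% of all 32817 promoter windows of the same length. The interferon-response core was in 9.09% of the family's windows (Ccl19, Cxcl10 and Cxcl14) and in 2.97% of all windows. The AP-1 core was in 12.1% and 6.75%, and the TATA box core in 30.3% and 12.4%. A match describes these letters and not a site in use, and windows of neighbouring family members share descent. Only exact matches were searched, so a window without a match is not shown to lack a site.

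Libraries of the DKO experiment held 8699417 to 11031443 counts, of which chemokine ligands took 4350 to 6166. Those of the BKO experiment held 21151726 to 40551934 counts, of which the family took 8515 to 19657. Levels below are CPM, in which each count is divided by its library's total in units of 1e6 after TMM scaling within an experiment. Arid1b, the gene deleted in both knockouts, was lower in BKO livers, with 44.3 ± 3.98 CPM against 84.8 ± 2.01 CPM in controls (SD, n = 4 each; adjusted p = 0.00154). In DKO livers it was lower too, with 60.0 ± 13.7 CPM against 89.3 ± 9.17 CPM in controls (adjusted p = 0.0167), a call that ended when libraries were scaled by total counts only. Counting over whole genes gave Arid1a at 108 ± 6.08 CPM in DKO livers and 124 ± 10.2 CPM in controls (adjusted p = 0.149). Alb, the defining hepatocyte transcript, averaged 53336 CPM in DKO livers and 100122 CPM in their controls. In bulk tissue, fewer cells of a type and less RNA per cell cannot be told apart, and that holds for each level given here.

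In DKO livers, 10 of the 14 chemokine ligand genes that passed the count filter differed from controls, 7 higher and 3 lower. Cxcl1, Cxcl14, Cx3cl1, Cxcl10, Cxcl16, Ccl6 and Ccl9 were higher, and Cxcl12, Ccl27a and Ccl24 were lower. A call means a p under 0.05 in edgeR's quasi-likelihood test after Benjamini-Hochberg adjustment over all genes tested. By that rule 35.8% of all 12848 genes were called, 19.2% higher and 16.6% lower, so a call alone is no rarity in these livers. Remarks below on whether groups overlap are descriptions, since the share of all genes whose groups stay apart was not counted. The median log2 fold change over the 14 was 0.83, against 0.02 over all genes tested. The other 25 members stayed under the filter, 9 of them without a count, and a gene with counts in 1 group only could pass through that group.

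**Figure D1:**
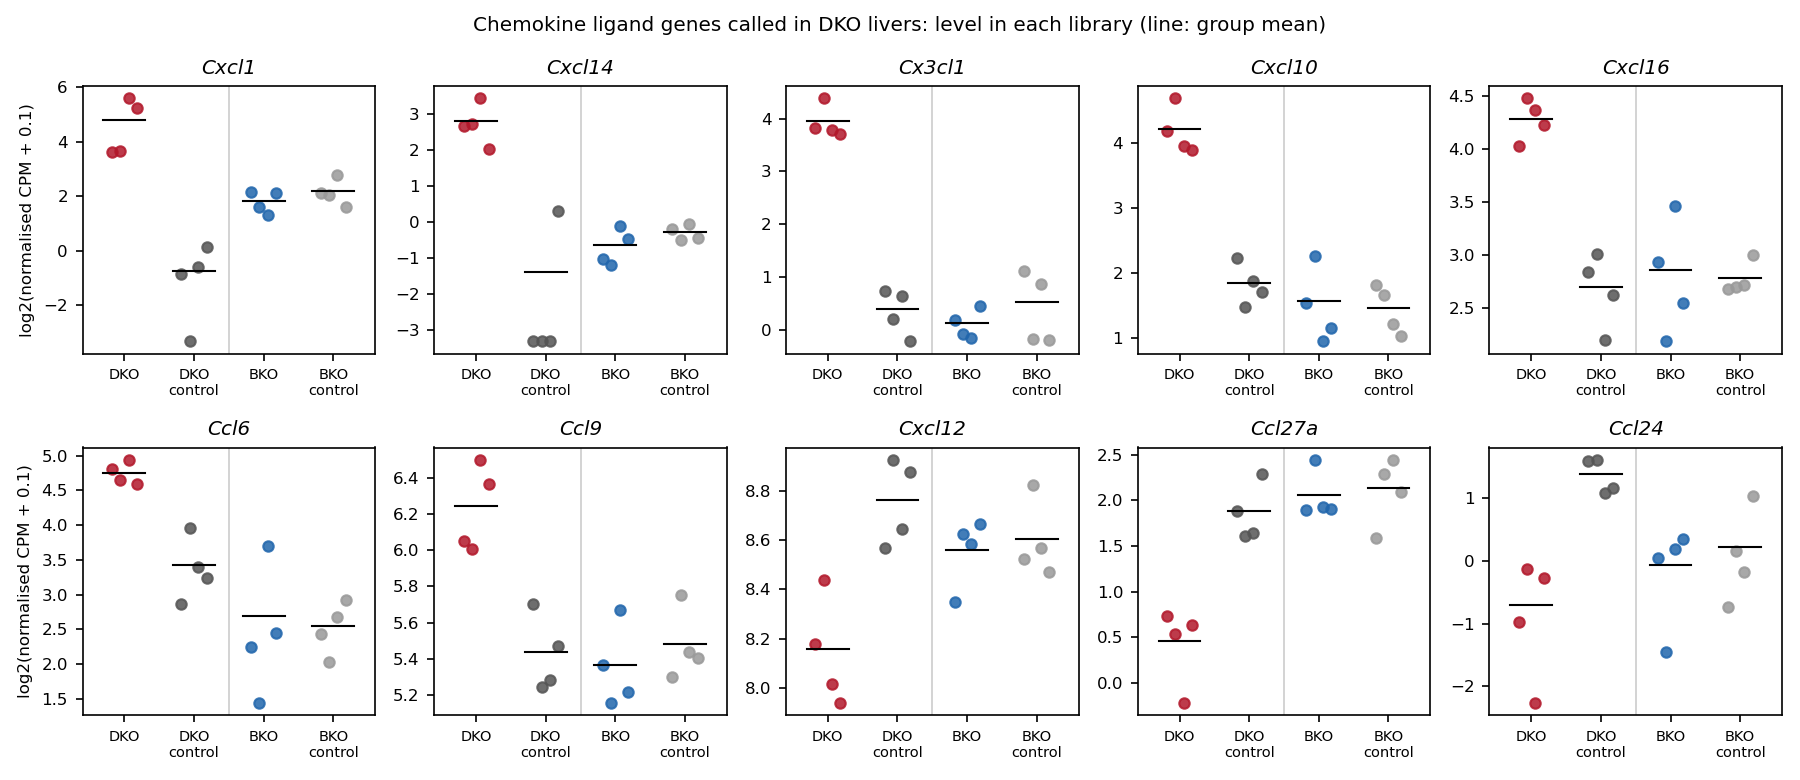
Level of the 10 chemokine ligand genes called in DKO livers, as log2 of normalised CPM plus 0.1 on the vertical axis, in each of the 16 libraries (points) by group, with a line at the group's mean level; each panel has its own vertical range. In every panel the 4 DKO points lie apart from the 4 DKO control points, while BKO points and BKO control points overlap. The 10 genes are shown because they passed the test in DKO livers, and the share of all genes with groups apart was not counted. DKO and BKO experiments were scaled separately.

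Cxcl1, the main liver attractant of neutrophils and a ligand of Cxcr2, had the highest ratio of group means among the members tested. Its level was 12.2, 12.4, 48.3 and 37.5 CPM in libraries DKO-7068, DKO-7070, DKO-7112 and DKO-7137, against 0.448, 0, 0.561 and 1.01 CPM in controls WT-7067, WT-7069, WT-7114 and WT-7139, and this order of libraries is kept below. The lowest DKO liver lay far above the highest control, but the DKO livers fell into 2 levels, with DKO-7112 and DKO-7137 high. The lower level was DKO-7068 and DKO-7070, the closest pair of libraries in the experiment (chi-square 7.49 per degree of freedom). How far that pair counts as 2 independent livers is not known. The group means were 27.6 ± 18.2 CPM and 0.504 ± 0.415 CPM, a 54.7-fold difference (log2 fold change 5.82, SE 0.78, adjusted p = 8.10e-04). With each library left out in turn, the ratio of means ran from 41.1 (without WT-7069 or DKO-7112) to 82.1 (without WT-7139). The control values rest on 17 counts in 4 libraries. The tag numbers form 3 runs (DKO-7068 and DKO-7070 with WT-7067 and WT-7069, DKO-7112 with WT-7114, and DKO-7137 with WT-7139), whose meaning the labels do not give, and Cxcl1 was 37.2 to 86.1 times as high in DKO livers within them.

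The other Cxcr2 ligands had few counts or none. Cxcl2, which shares the printed NF-kappaB match, had at most 3 counts in a DKO liver and 2 in a control, and Cxcl3, which shares it as well, had no count in any of the 16 libraries. The part of that match in the counts of Cxcl1, Cxcl2 or Cxcl3 was not tested. Cxcl5 had 0, 2, 7 and 4 counts in DKO livers, against no count in controls. Of the 11 neutrophil markers in the table, 3 passed the filter and were called higher, S100a8 and S100a9 only through their DKO counts, and 8 stayed under it. S100a9, a subunit of neutrophil calprotectin, was at 5.43 ± 4.05 CPM in DKO livers and 0.243 ± 0.158 CPM in controls, and its partner S100a8 at 5.05 ± 5.01 CPM and 0.334 ± 0.0377 CPM. The summed level of all 11 was 13.7, 25.2, 70.9 and 20.8 CPM in DKO livers, against 3.28 to 6.68 CPM in controls. Csf3r, the third marker called, had 24, 56, 22 and 17 counts in controls, where all 11 together had 34, 70, 35 and 26. In DKO livers Csf3r had 72, 98, 184 and 79 of 167, 280, 653 and 201 counts. DKO-7112 was highest both for Cxcl1 and for these markers, but DKO-7137 had the second highest Cxcl1 with a marker sum below that of DKO-7070. Elane was at 0 in every library of the experiment and Ltf at 0 in all controls, and the part of these cells in the Cxcl1 result was not tested.

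Among the interferon-inducible ligands of Cxcr3, which lie side by side on chromosome 5, only Cxcl10 passed the test in DKO livers. Cxcl10 was at 17.9, 25.5, 15.3 and 14.7 CPM in DKO livers, against 4.59, 2.67, 3.59 and 3.15 CPM in controls. The groups did not overlap, and the means of 18.4 ± 4.98 CPM and 3.50 ± 0.817 CPM differed 5.25-fold (log2 fold change 2.39, SE 0.23, adjusted p = 5.07e-05). Cxcl9 was at 11.0, 15.1, 19.8 and 9.22 CPM in DKO livers, against 23.7, 14.5, 12.5 and 12.5 CPM in controls, and these ranges overlapped. Its log2 fold change was -0.20, with a 95% interval of -0.82 to 0.42 (adjusted p = 0.616). Cxcl11, annotated in the reference strain as a polymorphic pseudogene, was at 1.68 ± 0.893 CPM in DKO livers and 2.60 ± 1.01 CPM in controls (log2 fold change -0.60, 95% interval -1.56 to 0.37, adjusted p = 0.318).

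The counts of these neighbours can also be set against each other within each library. The count of Cxcl10 over that of Cxcl9 was 1.63, 1.69, 0.775 and 1.6 in DKO livers, against 0.193, 0.184, 0.288 and 0.253 in controls. Over Cxcl11 it was 9.91, 9.16, 10.1 and 23.7 in DKO livers, against 1.95, 2, 0.970 and 1.04 in controls. Both ratios were higher in every DKO liver than in any control, with differences of 2.59 and 3.11 between the group means of the log2 ratios. In BKO livers these differences were 0.16 and -0.41, and the groups overlapped. The ratios were chosen because Cxcl10 had passed the test and its neighbours had not, so they are a description. An exact permutation test gave p = 0.0286 for both ratios in DKO livers, the smallest p it can give, and an adjusted p of 0.0571. As the ratios were chosen by these values, that test decides nothing. A ratio within a library does not depend on the scaling between libraries. Art3, a gene on the opposite strand that overlaps Cxcl10 and Cxcl11, was at 1.49 CPM in DKO livers and 1.93 CPM in controls (adjusted p = 0.635).

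**Figure D2:**
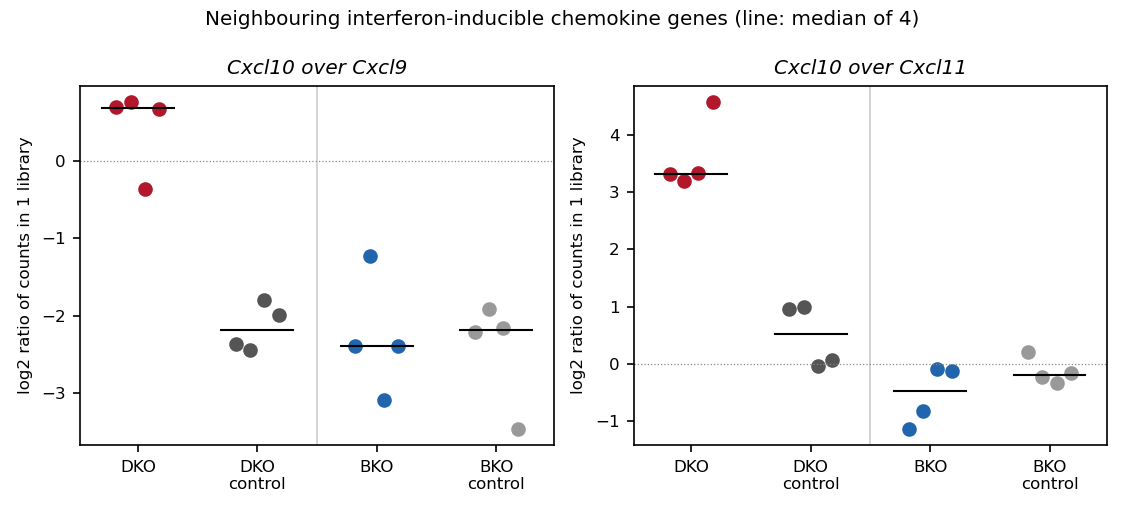
Ratio of the Cxcl10 count to the Cxcl9 count (left) and to the Cxcl11 count (right) within each library, on a log2 vertical axis, by group, with a line at the median of 4 libraries. The 4 DKO livers lie above all 4 DKO controls in both panels, and BKO livers overlap their controls.

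Around these genes, 4 of the 6 tested interferon gamma axis genes were higher in DKO livers and 0 lower, with a median log2 fold change of 0.50. This and each later count of a gene list stand against 19.2% of all genes tested called higher and 16.6% lower, with a median of 0.02, and genes that pass the filter only through the DKO libraries raise such counts. Ciita, the master regulator of class II antigen presentation genes, was at 12.6 ± 1.52 CPM in DKO livers and 3.81 ± 1.05 CPM in controls (log2 fold change 1.72). Irf8, a transcription factor of monocytes and dendritic cells, had a log2 fold change of 1.08. Of 13 tested inflammatory cytokine and NF-kappaB genes, 7 were higher and 0 lower, with a median of 0.84. Vcam1, an adhesion molecule for leukocytes, was at 66.8 ± 13.8 CPM in DKO livers and 20.0 ± 8.75 CPM in controls, and Tnfaip3, a feedback inhibitor of NF-kappaB, was at 16.6 ± 4.19 CPM and 5.42 ± 1.41 CPM. Without DKO-7112, 5 of these 13 were called higher and 1 lower. T cell markers were scarce, with 2 tested and 1 higher, and summed to 8.50 to 14.7 CPM in DKO livers and 3.53 to 5.54 CPM in controls. NK cell markers summed to 4.46 to 5.76 CPM in DKO livers and 3.70 to 6.21 CPM in controls, with 0 called of 1 tested.

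Both membrane-bound chemokines were higher in DKO livers. Cx3cl1, or fractalkine, an adhesion ligand for monocytes and macrophages that carry Cx3cr1, was at 14.0, 20.9, 13.8 and 13.0 CPM in DKO livers, against 1.57, 1.05, 1.46 and 0.757 CPM in controls. DKO-7070 stood above the other DKO livers, and all 4 stood above every control. The means of 15.4 ± 3.67 CPM and 1.21 ± 0.374 CPM differed 12.8-fold (log2 fold change 3.66, SE 0.26, adjusted p = 8.07e-06). Within the tag runs the ratio was 9.45 to 17.1. Cxcl16, which binds Cxcr6 on T and NKT cells and also takes up oxidised lipoprotein, was at 16.2, 22.2, 20.5 and 18.7 CPM in DKO livers, against 7.05, 7.92, 4.49 and 6.06 CPM in controls. Its means of 19.4 ± 2.59 CPM and 6.38 ± 1.47 CPM differed 3.04-fold (log2 fold change 1.6, SE 0.19, adjusted p = 1.45e-04). Zmynd15, which overlaps Cxcl16 on the opposite strand, was also higher, with 6.02 ± 0.320 CPM in DKO livers and 3.28 ± 0.959 CPM in controls (log2 fold change 0.87, adjusted p = 0.0126). The strand setting of the counting is unknown here, and without it reads of such a pair cannot be told apart.

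Of 6 tested proteases that shed or trim chemokines, 3 were higher in DKO livers and 1 lower, where 35.8% of all genes were called. Adam10, a sheddase of both Cx3cl1 and Cxcl16, was at 90.9 ± 4.39 CPM in DKO livers and 56.3 ± 2.12 CPM in controls (log2 fold change 0.69, adjusted p = 2.34e-04). The macrophage elastase gene Mmp12 was at 21.1 ± 6.37 CPM in DKO livers and 0.215 ± 0.113 CPM in controls. Mmp2, a gelatinase that can cut Cxcl12, had a log2 fold change of 2.71. Dpp4, a peptidase that inactivates Cxcl12 and Cxcl10 by trimming their ends, was lower, with 77.1 ± 9.93 CPM in DKO livers and 193 ± 28.9 CPM in controls (log2 fold change -1.33).

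The macrophage-derived CC chemokines Ccl6 and Ccl9, both rodent ligands of Ccr1, were higher in DKO livers by smaller folds from higher levels. Ccl6 was at 27.8, 24.9, 30.6 and 23.9 CPM in DKO livers, against 7.17, 15.5, 10.4 and 9.34 CPM in controls. Its means of 26.8 ± 3.02 CPM and 10.6 ± 3.52 CPM differed 2.53-fold (log2 fold change 1.33, SE 0.21, adjusted p = 7.98e-04). Ccl9 was at 66.0, 64.2, 90.3 and 82.2 CPM in DKO livers, against 51.9, 37.8, 38.8 and 44.3 CPM in controls. Its means of 75.7 ± 12.7 CPM and 43.2 ± 6.48 CPM differed 1.75-fold (log2 fold change 0.81, SE 0.15, adjusted p = 0.00183). No DKO liver overlapped a control for either gene. Ccl5, another Ccr1 ligand, made by T and NK cells, was at 1.93 ± 0.463 CPM in DKO livers and 1.06 ± 0.513 CPM in controls and did not pass (log2 fold change 0.85, 95% interval -0.01 to 1.70, adjusted p = 0.115).

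Of 11 tested recruited macrophage markers, 10 were higher in DKO livers and 0 lower, with a median log2 fold change of 3.25, and their summed level was 183 to 1010 CPM in DKO livers, against 47.1 to 55.3 CPM in controls (1009.9 CPM in DKO-7112). The list includes Ccr2, Cx3cr1 and Spp1. Spp1, also counted as a bile duct marker below, made up a large part of these sums, with 377 ± 331 CPM in DKO livers. Among the members of the list, the largest changes were in Gpnmb and Mmp12. Gpnmb, a transmembrane glycoprotein of lipid-laden macrophages, was at 17.3 ± 11.6 CPM in DKO livers and 0.0834 ± 0.0570 CPM in controls. Of 10 tested Kupffer cell markers, 5 were higher, such as the scavenger receptor Marco (32.7 ± 3.96 CPM in DKO livers and 13.5 ± 6.42 CPM in controls), and 5 did not pass, with sums of 521 to 599.7 CPM in DKO livers and 333 to 562 CPM in controls. The control with the highest Kupffer sum, WT-7069, was also the control with the highest Ccl6. Of 6 tested dendritic cell markers, 3 were higher and 0 lower. Of 3 tested bile duct markers 1 was higher, Spp1, which macrophages also make, at 377 ± 331 CPM in DKO livers and 24.8 ± 3.02 CPM in controls; 0 of 1 B cell marker tested was called, and no mesothelial marker passed the filter. The part of these cells in the chemokine levels was not tested.

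Monocyte-attracting CC chemokines were close to the limit of counting. Ccl2 had 10, 14, 25 and 13 counts in DKO livers, against 3, 2, 0 and 1 in controls, and stayed under the filter. Ccl3, a ligand of Ccr1, had 10, 8, 8 and 7 counts in DKO livers, against 2, 0, 2 and 2 in controls, and Ccl8 had 3, 6, 3 and 2 counts against none. With no count filter, a setting under which 25.8% of 18638 genes were called, these 3 were called higher (14.2% of genes were, and 11.6% lower), with adjusted p of 0.0029 (Ccl2), 0.0267 (Ccl3) and 0.0158 (Ccl8). Under the same setting Cxcl13, the B cell attractant, was called lower with 3, 4, 0 and 2 counts in DKO livers and 8, 14, 6 and 12 in controls (adjusted p = 0.0118). Cxcl17, a mucosal chemokine, was called lower with 3, 4, 1 and 2 counts in DKO livers and 9, 4, 12 and 6 in controls (adjusted p = 0.0336). Both Cxcl17 ranges met at 4 counts. Ccl22, a dendritic cell product that attracts regulatory T cells, had 8, 12, 1 and 1 counts in DKO livers, against 1, 0, 0 and 1 in controls. Ccl4 had 20 counts over 4 DKO livers, against 3 over 4 controls. In the BKO experiment, Ccl2 had 59 counts over 4 BKO livers, against 18 over 4 controls, and Ccl3 had 13, against 5.

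Cxcl14, an epithelial and stromal chemokine without a settled receptor, passed almost wholly through the DKO group. It was at 6.24, 6.48, 10.7 and 3.94 CPM in DKO livers, against 0, 0, 0 and 1.14 CPM in controls, where all 9 counts fell in WT-7139. The means of 6.85 ± 2.84 CPM and 0.284 ± 0.568 CPM differed 24.1-fold (log2 fold change 4.69, SE 0.84, adjusted p = 0.0024). Leaving out WT-7139 leaves no control count. Against an assumed 3 counts over the other 3 controls (0.106 CPM) the DKO mean was 64.7-fold higher. That value holds for those 3 controls only and is no lower bound on the difference between the groups. Within the tag run that holds WT-7139, the ratio was 3.47. The 1 control with counts thus sets the size of the fold, and the groups did not overlap with or without it.

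Cxcl12, the stromal ligand of Cxcr4 and Ackr3 and the most abundant chemokine transcript here, was lower in DKO livers. Its level was 289, 347, 259 and 246 CPM in DKO livers, against 379.6, 486, 399.8 and 469 CPM in controls. The means of 285 ± 45.1 CPM and 434 ± 51.7 CPM differed 1.52-fold (log2 fold change -0.60, SE 0.15, adjusted p = 0.0103). With libraries scaled by total counts only, which moved the median of all genes by 0.18 on the log2 scale, the log2 fold change was -0.41 and did not pass (adjusted p = 0.0887). Markers of liver cells that make Cxcl12 moved in both directions. Of 10 tested stellate cell markers, 7 were higher and 1 lower, with a median log2 fold change of 1.67. The collagen gene Col1a1 was at 559 ± 109 CPM in DKO livers and 28.2 ± 13.1 CPM in controls, and Lrat, which stores retinol in resting stellate cells, was the lower one, at 10.1 ± 4.54 CPM and 34.4 ± 8.52 CPM. Of 10 tested sinusoidal endothelial markers, 1 was higher and 3 lower, with a median of -0.30. The lectin gene Clec4g was at 26.5 ± 1.97 CPM in DKO livers and 38.8 ± 7.33 CPM in controls. The counts for endothelial markers were 2 higher and 0 lower with total counts only, and 1 higher and 1 lower without DKO-7112. Hepatocyte markers were lower for 6 of 8, with a median of -0.83, and the part of any of these cells in the Cxcl12 level was not tested.

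Ccl27a and Ccl24 were the other members lower in DKO livers. Ccl27a, known as a skin chemokine for Ccr10, was at 1.56, 1.35, 0.760 and 1.45 CPM in DKO livers, against 3.58, 2.96, 3.03 and 4.79 CPM in controls. Its means of 1.28 ± 0.357 CPM and 3.59 ± 0.849 CPM differed 2.81-fold (log2 fold change -1.46, SE 0.29, adjusted p = 0.00329). Il11ra1, which overlaps it on the opposite strand, was at 20.5 ± 2.37 CPM in DKO livers and 17.0 ± 5.67 CPM in controls and did not pass (adjusted p = 0.357). Ccl24, an eosinophil attractant that acts on Ccr3 and is made by macrophages, had 5, 9, 1 and 7 counts in DKO livers, against 26, 31, 18 and 17 in controls. Its means of 0.514 ± 0.320 CPM and 2.51 ± 0.496 CPM differed 4.88-fold (log2 fold change -2.25, SE 0.42, adjusted p = 0.00228). The ratio of control to DKO level within the tag runs was 2.96 to 18.6 for Ccl24, the top value resting on 1 count, and 2.25 to 3.99 for Ccl27a. Ccl25, a gut and thymus chemokine, was at 2.63 ± 0.252 CPM in DKO livers and 3.03 ± 0.668 CPM in controls (log2 fold change -0.20, 95% interval -0.72 to 0.33, adjusted p = 0.558).

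The mixture of chemokine transcripts was therefore different in DKO livers. Per kilobase of exon, Cxcl12 made up 22.2% to 33.1% of the family's transcripts in DKO livers, against 51.8% to 61.4% in controls. Ccl6 made up 10.8% to 13.9% in DKO livers and 4.45% to 8.90% in controls. Cxcl1 made up 5.16% to 18.1% in DKO livers, with a mean of 14.7 CPM per kilobase against 14.9 for Ccl6; Cxcl1 was above Ccl6 in DKO-7112 and DKO-7137 and below it in DKO-7068 and DKO-7070. Ccl9 shares of 16.4% to 22.3% in DKO livers and 12.8% to 19.0% in controls overlapped. In controls Cxcl9 followed Cxcl12, Ccl9 and Ccl6, at 4.38% to 8.78%. Shares of 1 total constrain each other, so the fall of the most abundant member raises the rest. Summed over all 39 genes without Cxcl12, the level was 184 to 262 CPM in DKO livers and 88.2 to 113 CPM in controls, whereas with Cxcl12 it was 462 to 555 CPM and 488 to 578 CPM.

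**Figure D3:**
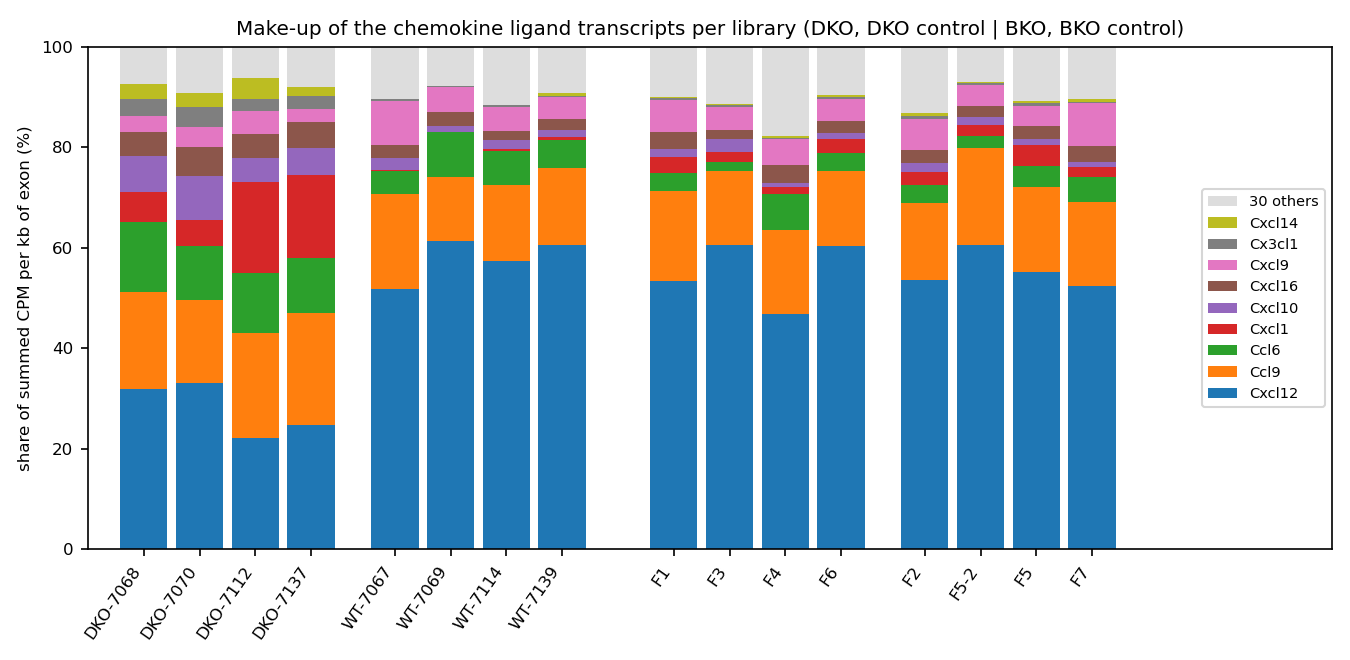
Share of each named chemokine ligand gene in the summed CPM per kilobase of exon (vertical axis, %) for each library, in the order DKO, DKO control, BKO and BKO control. The Cxcl12 share is 22.2% to 33.1% in DKO livers, against 51.8% to 61.4% in DKO controls, and 46.9% to 60.6% in BKO livers, against 52.4% to 60.5% in BKO controls.

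In BKO livers, where only Arid1b was deleted, none of the 16 chemokine ligand genes tested was called by edgeR. No member reached an unadjusted p under 0.05, and the DESeq2 Wald test called 0 as well. Over all 14061 genes tested, 0.583% were called, 0.185% higher and 0.398% lower, and 1636 had an unadjusted p under 0.05. Adjusted p ran from 0.534 (Ccl5) to 0.950 (Ccl27a), and the median log2 fold change was -0.14, against 0.00 over all genes. With no count filter 0 of 31 members were called, where 0.601% of all genes were, 0.170% higher and 0.431% lower. A p that misses the threshold does not show that levels were alike, so the intervals are given: for 7 of the 16, Ccl9, Ccl27a, Cxcl1, Cxcl9, Cxcl10, Cxcl12 and Cxcl16, the 95% interval lay within -1 and 1 on the log2 scale.

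Cxcl1 was at 4.36, 2.91, 2.41 and 4.24 CPM in BKO livers F1, F3, F4 and F6, against 4.29, 4.03, 6.78 and 2.95 CPM in controls F2, F5-2, F5 and F7. These ranges overlapped, with a log2 fold change of -0.38 and a 95% interval of -0.99 to 0.22. Cxcl10 was at 2.80, 4.70, 1.83 and 2.12 CPM in BKO livers, against 3.41, 3.05, 2.23 and 1.95 CPM in controls (log2 fold change 0.10, interval -0.58 to 0.79). Cx3cl1 was at 1.03, 0.848, 0.794 and 1.27 CPM in BKO livers, against 2.06, 0.780, 1.72 and 0.772 CPM in controls (log2 fold change -0.45, interval -1.31 to 0.41). The ranges overlapped for both, and for Cxcl14, at 0.392, 0.339, 0.824 and 0.619 CPM in BKO livers, against 0.764, 0.610, 0.862 and 0.636 CPM in controls. Unlike in the DKO controls, Cxcl14 thus had counts in all 4 BKO controls. Cxcl1 also differed between the sets of controls, with 0 to 1.01 CPM in DKO controls and 2.95 to 6.78 CPM in BKO controls. The experiments were scaled separately and differ in depth. Cxcl12 averaged 377 ± 35.3 CPM in BKO livers and 388.5 ± 44.0 CPM in controls (log2 fold change -0.04, interval -0.28 to 0.19). Ccl9 was at 41.1, 35.6, 50.7 and 37.1 CPM in BKO livers, against 39.3, 53.7, 43.3 and 42.3 CPM in controls. The macrophage chemokine Ccl6 was at 4.66, 2.62, 12.9 and 5.35 CPM in BKO livers, against 5.32, 3.97, 6.27 and 7.5 CPM in controls, and Cxcl16 at 7.5, 4.43, 10.9 and 5.74 CPM, against 6.29, 6.37, 6.47 and 7.86 CPM. Of the genes lower in DKO livers, Ccl27a was at 3.63, 5.35, 3.69 and 3.65 CPM in BKO livers, against 2.91, 4.78, 5.33 and 4.18 CPM in controls. Ccl24 was at 0.932, 0.266, 1.04 and 1.17 CPM in BKO livers, against 0.500, 1.02, 0.784 and 1.95 CPM in controls. For every member tested, BKO livers and controls overlapped, which is a description, since the share of all genes that overlapped was not counted. Among the ligands with wide intervals, Cxcl11 was at 6.13, 8.28, 1.95 and 2.31 CPM in BKO livers and 2.18 to 3.59 CPM in controls.

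Cxcl13 had the highest log2 fold change of the BKO comparison, 1.80, with an interval of -0.61 to 4.21, and 1 library made it. It was at 1.03, 0.775, 12.8 and 2.02 CPM in BKO livers F1, F3, F4 and F6, against 2.20, 0.475, 1.33 and 0.727 CPM in controls. Without F4 the ratio of BKO to control means was 1.08, against 3.51 with it. F4 was also the BKO liver with the highest Ccl6 (12.9 CPM, against 2.62 to 5.35 CPM in the others) and the highest Cxcl16 (10.9 CPM). Kupffer cell markers summed to 617 CPM in F4, against 183 to 318 CPM in the other BKO livers and 243 to 322 CPM in controls, and the part of these cells was not tested. Of the 23 members under the filter in the BKO experiment, 8 had no count and 9 had at most 9 in any library. The highest count was 87 for Cxcl5 in control F2, where the other 7 libraries had 0 to 5.

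**Figure D4:**
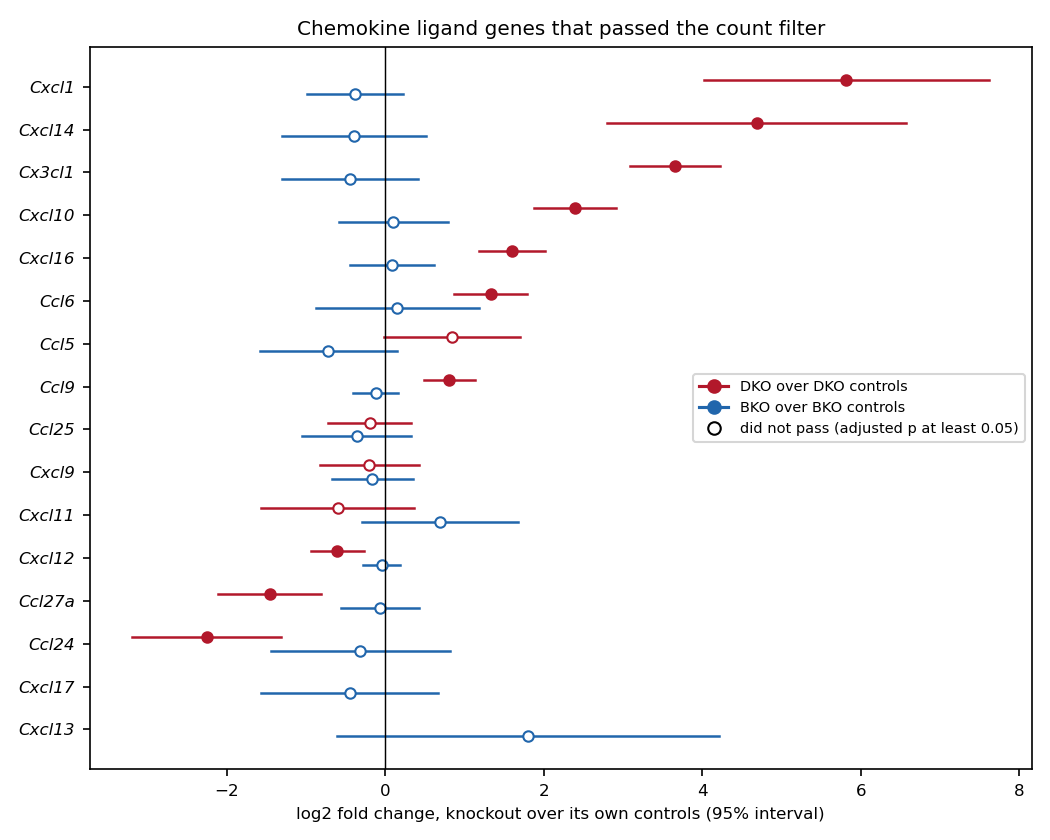
Log2 fold change of knockout over its own controls with its 95% interval (horizontal axis) for the 16 chemokine ligand genes that passed the count filter in either experiment, DKO above BKO for each gene; filled points passed the test. From Cxcl1 at 5.82 down to Ccl24 at -2.25, 10 DKO points are filled, and no BKO point is.

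The difference of the knockout effects, (DKO minus its controls) minus (BKO minus its controls), was tested in 1 fit over all 16 libraries. It was called for 9 of the 18 members tested, 6 with a higher and 3 with a lower effect in DKO livers, where 22.5% of 14050 genes were called, 11.0% higher and 11.5% lower. It uses the same DKO libraries as above and adds the contrast with BKO. Differences on the log2 scale were 6.19 (SE 0.83, adjusted p = 1.23e-04) for Cxcl1 and 4.09 (SE 0.46, adjusted p = 1.35e-05) for Cx3cl1. They were 2.26 for Cxcl10 (adjusted p = 8.95e-04), 5.07 for Cxcl14 (adjusted p = 0.00124), 1.49 for Cxcl16 (adjusted p = 0.00353) and 0.90 for Ccl9 (adjusted p = 0.00451). The difference was -1.43 for Ccl27a (adjusted p = 0.00982). For Cxcl12 it was -0.59 (adjusted p = 0.0288), and 6 of the 16 single libraries ended that call when left out (adjusted p 0.0531 to 0.0594). For Cxcl13 it was -4.17 (adjusted p = 0.0425), and 12 of the 16 ended it (adjusted p 0.0502 to 0.0825), F4 among them. Ccl6 did not pass (1.15, adjusted p = 0.137) with all libraries but did without F4 (1.76, adjusted p = 0.00301), and Ccl24 did not pass either (-1.98, adjusted p = 0.065). Ccl2 and Ccl3, under the filter within each experiment, passed the filter of this fit and were not called. Their differences were 1.62 (adjusted p = 0.323) and 1.02 (adjusted p = 0.621). With no count filter, 7 of 32 members were called higher and 2 lower, where 15.2% of all genes were called, 7.35% higher and 7.83% lower.

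Of 18 chemokine receptor genes, 8 passed the filter in DKO livers, 5 of them higher and 0 lower, where 19.2% of all genes were higher. Ccr1 and Ccr7 had 5 and 12 counts over the 4 controls and passed through the DKO libraries, and the median log2 fold change of 2.49 covers only the genes that passed. Cx3cr1, the receptor of Cx3cl1, was at 18.6 ± 3.37 CPM in DKO livers and 0.695 ± 0.433 CPM in controls (log2 fold change 4.73, adjusted p = 9.84e-06). Ccr1, the receptor of Ccl6 and Ccl9, was at 4.64 ± 2.24 CPM and 0.144 ± 0.140 CPM (log2 fold change 4.93, adjusted p = 1.98e-04). Ccr2, the receptor of Ccl2, was at 9.999 ± 5.81 CPM in DKO livers and 1.06 ± 0.733 CPM in controls (log2 fold change 3.25, adjusted p = 0.00179). Ccr7, a receptor of mature dendritic cells whose ligands Ccl19 and Ccl21a had no count in this experiment, was at 1.46 ± 0.267 CPM in DKO livers and 0.315 ± 0.192 CPM in controls (log2 fold change 2.12, adjusted p = 0.00329).

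Both receptors of Cxcl12 were higher while the ligand was lower. Cxcr4 was at 4.87 ± 0.522 CPM in DKO livers and 0.654 ± 0.334 CPM in controls (log2 fold change 2.86, adjusted p = 1.03e-04). Ackr3, an atypical receptor that scavenges Cxcl12, was at 3.31 ± 1.13 CPM and 0.838 ± 0.459 CPM (log2 fold change 1.98, adjusted p = 0.0051), and it was the only 1 of 5 tested atypical receptor genes called; with total counts only 2 were higher, and without DKO-7112 1 was higher and 1 lower. Cxcr6, the receptor of Cxcl16, did not pass, with 2.75 ± 0.889 CPM in DKO livers and 2.995 ± 0.537 CPM in controls (adjusted p = 0.764), and neither did Ccr9 or Xcr1. Cxcr2, the receptor of Cxcl1, stayed under the filter with 76 counts over 4 DKO livers, 40 of them in DKO-7112, against 4 over the controls. Cxcr3, the receptor of Cxcl10, stayed under it with 52 and 22 counts. Pf4, a platelet CXC chemokine outside the name pattern, was at 1.77 ± 0.528 CPM in DKO livers and 0.374 ± 0.229 CPM in controls (log2 fold change 2.17, adjusted p = 0.00436). In BKO livers 0 of 11 tested receptors, 0 of 5 atypical receptors and 0 genes of each leukocyte and stromal list were called. Over all 14061 genes tested in that experiment 0.583% were called, so 0 calls in lists this short do not set these genes apart. Without DKO-7112, 5 of 9 tested receptor genes were higher and 0 lower.

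**Figure D5:**
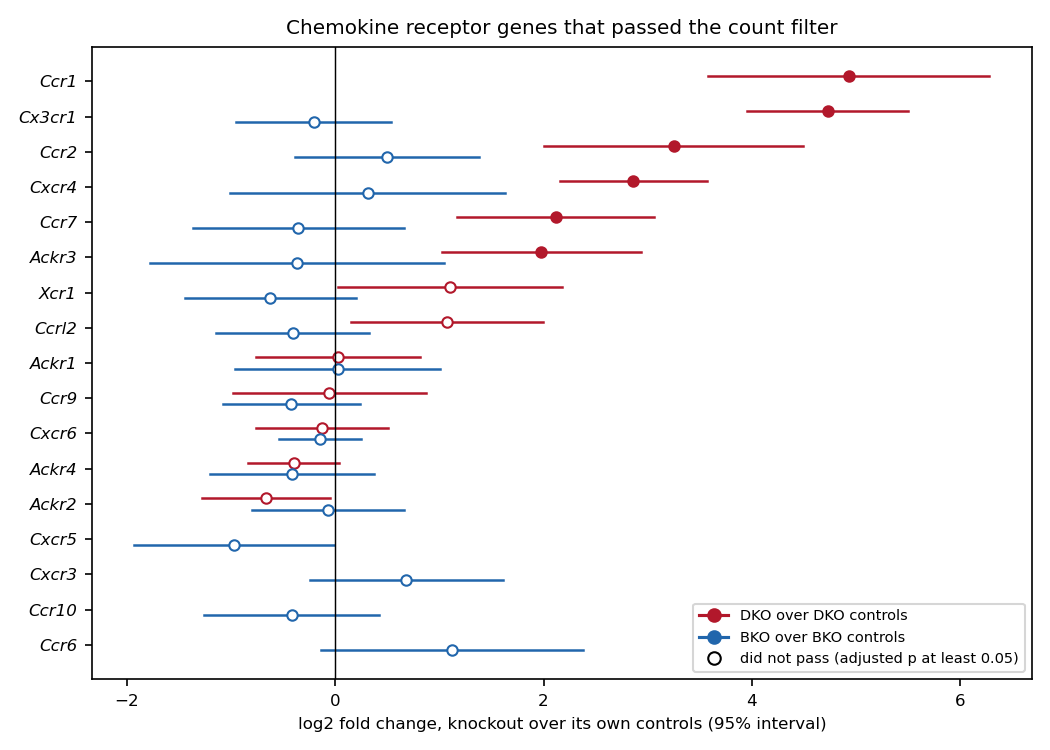
Log2 fold change of knockout over its own controls with its 95% interval (horizontal axis) for the chemokine receptor and atypical receptor genes that passed the count filter in either experiment, DKO above BKO for each gene; filled points passed the test. The 6 filled DKO points, Ccr1 at 4.93 to Ackr3 at 1.98, all lie to the right of 0, and no BKO point is filled.

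Of all 39 members, 14 were tested in both experiments, 2 more, Cxcl13 and Cxcl17, in the BKO experiment only, and 23 in neither. Among those 23, Ccl2 and Ccl3 were tested in the difference of effects. Ccl1, Ccl21a, Ccl21b, Ccl21c, Ccl27b, Cxcl3 and Cxcl15 had no count in any of the 16 libraries. Ccl19, Ccl21a and Ccl21b each have more than 1 annotated copy, and Ccl21c lies on an unplaced scaffold. The sources do not say how reads shared between copies were counted, so a count of 0 for these genes cannot be read as absence of the transcript. In the DKO experiment Ccl26 and Ccl19 had no count either, and Ccl11, Ccl12, Ccl17, Ccl20, Ccl28, Ccl7 and Xcl1 had at most 8 in a library. An opposite-strand gene overlaps 12 of the 39 members. The called members lie on chromosomes 5 (Cxcl1 at 90891241 to 90893115, Cxcl10 at 92346638 to 92348889 and Ccl24 at 135569937 to 135573049), 11 (Ccl6 at 83587882 to 83593087, Ccl9 at 83572919 to 83578636 and Cxcl16 at 70453983 to 70459984), 8 (Cx3cl1 at 94772009 to 94782427), 13 (Cxcl14 at 56288643 to 56296551), 6 (Cxcl12 at 117168535 to 117181367) and 4 (Ccl27a at 41769467 to 41774247) of GRCm38.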

How the data were processed

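Liver RNA was isolated with TRIzol and RNeasy columns, and NuGEN Ovation kits were used for libraries, per the labels' protocols. The values deposited by the authors are whole-number counts per gene, 1 table per experiment and not normalised. Per the submitters' processing notes, reads were handled with HISAT2 2.1.0, Trim Galore 0.4.1 and featureCounts 1.6.2, and GRCm38, mm10 and GRCh38 appear as builds with no role. Strand setting, annotation and handling of shared reads were not stated.

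These counts were tested with edgeR 4.0.16 in R 4.3.3 (filterByExpr, TMM factors, robust quasi-likelihood test), separately per experiment. The difference of effects used 1 fit over 16 libraries and 24394 shared gene names, without 27 date-like names. P-values were Benjamini-Hochberg adjusted over all genes tested, and the standard error is the log2 fold change over the square root of F. Folds are ratios of mean CPM, and floors use 3 counts. Positions, exon lengths and overlaps come from GENCODE M21. Fits were tested on simulated data. Intervals cover 95%.

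Members called in DKO livers or in the difference are given library by library, except Cxcl12 in the BKO experiment, which is given by means. Other members tested in DKO livers are given by level, and the rest by counts. CPM of Ccl5, Ccl25, Cxcl9 and Cxcl17 in the BKO experiment are not printed. Other genes named are the targeted genes, every called gene of the receptor lists (1 receptor gene is not reported here and was left out of its list), and at most 2 called genes per list with the largest changes at 1 CPM or more. Adam10, Alb, Csf3r, Dpp4, Lrat, Art3, Il11ra1, Zmynd15 and genes named for low counts or for missing the threshold are extra. They, the Cxcl10 ratios and the recount of lists under other scalings and without DKO-7112 were chosen after their values were seen. The members and gene lists were chosen with earlier results of these data known. DKO-7068 and DKO-7070 were the closest pair of libraries (chi-square 7.49 per degree of freedom, against 26.4 to 62.0 for other pairs within groups of that experiment); they differed beyond sampling noise and were kept apart, as were F5 and F5-2 (69.5), which share a tag and may share an animal; a count difference does not show separate animals. Alternatives were DESeq2 1.42.0 size factors and Wald test, total counts, other filters, each library left out, a block for tag runs, summed pairs and 1 fit over all libraries.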

Additional observations from a re-analysis of the deposited data

Results flagged for a closer look

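Values that stood apart from the other 3 libraries of their group, by Dixon's test at 95%, were found in 5 of 60 groups of members, and chance flags about 1 in 20. Cx3cl1 was at 20.9 CPM in DKO-7070, against 13.0 to 14.0 CPM in the other DKO livers. Cxcl14 was at 1.14 CPM in control WT-7139 and at 0 in the other DKO controls. Ccl27a was at 5.35 CPM in BKO liver F3, against 3.63 to 3.69 CPM in the others. Cxcl13 was at 12.8 CPM in BKO liver F4, against 0.775 to 2.02 CPM. Cxcl16 was at 7.86 CPM in BKO control F7, against 6.29 to 6.47 CPM.

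The knockout effect differed between the DKO and BKO experiments, by the test of the difference itself, for 9 members. On the log2 scale, DKO effect minus BKO effect, these were Cxcl1 (6.19), Cxcl14 (5.07), Cx3cl1 (4.09), Cxcl10 (2.26), Cxcl16 (1.49), Ccl9 (0.90), Cxcl12 (-0.59), Ccl27a (-1.43) and Cxcl13 (-4.17). The experiments also differ in sequencing depth and in the tables they were deposited in, which cannot be told apart from any other difference between the experiments.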

How the results depend on the processing

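No alternative turned the direction of a called member. In DKO livers, 223 of 224 recomputed member values kept their side of the threshold, the exception being Cxcl12 with total counts only; 236 of 236 did in BKO livers, and 340 did for the difference, where 21 calls ended and 7 were gained. With each library left out in turn, members called in DKO livers numbered 7 to 8 higher and 3 lower (all genes 2048 to 2489 and 1776 to 2283), in BKO livers 0 (all genes 4 to 33 and 13 to 73), and in the difference 6 to 7 higher and 1 to 3 lower (all genes 1302 to 1700 and 1316 to 1672). With no count filter, 5 members were lower in DKO livers, against 3. With total counts only, all genes lower in DKO livers numbered 1269, against 2137, so that 72.0% of calls were higher, against 53.6%; BKO livers had 86 lower, against 56 (20.4% of calls higher, against 31.7%); the difference had 1 member lower, against 3, and over all genes 2627 higher and 744 lower, against 1552 and 1610 (77.9% higher, against 49.1%). That scaling moved the median of all genes by 0.18, -0.07 and 0.28. The DESeq2 Wald test called 152 genes higher and 203 lower in BKO livers, against 26 and 56, and 1 fit over all libraries called 13 and 37. For the difference, Ccl5 was gained with total counts (adjusted p = 0.0334), with DESeq2 (0.0352) and without F5-2 (0.0175), and Ccl24 with DESeq2 (0.0364) and without F3 or F7 (0.0231 and 0.0249); Cxcl12 ended with total counts (0.347), and Cxcl13 ended with total counts (0.0535) and with no filter (0.069). The causes were not tested. No paired analysis was possible because the labels give no replicate numbers shared between groups; a fit with the tag runs as a block, whose meaning the labels do not give, was run in its place and kept all 7 higher and 3 lower calls of members in DKO livers. With F5 and F5-2 summed as 1 library, 0 members were called in BKO livers (all genes 38 higher and 66 lower). With DKO-7068 and DKO-7070 summed as 1 library, 8 members were higher and 3 lower in DKO livers (all genes 2120 and 1845). Many members had few counts or none: 25 of 39 in the DKO experiment and 23 in the BKO experiment stayed under the filter. The part of depth in this was not tested.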

Other observations

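By mean CPM per kilobase of exon, the order of the leading chemokine genes was Cxcl12, Ccl9, Cxcl9 in both BKO livers and their controls, with levels of 46.1, 13.5 and 4.35 in BKO livers and 47.5, 14.7 and 4.87 in controls. In DKO controls Ccl6 came after Cxcl12 and Ccl9, with 5.91 CPM per kilobase. The experiments were scaled separately, so these orders are within an experiment.

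Ppbp, a platelet chemokine outside the name pattern, had 46 counts over 4 DKO livers, against 6 over their controls, and 102 counts over 4 BKO livers, against 104 over theirs. In BKO control F2, where Cxcl5 had 87 counts, Cxcl2 had 7 counts, against 0 in the other 3 controls.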
